A study of Mus musculus with 8 samples.

Results

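Actin turnover transcripts were measured by RNA sequencing in platelets of 8 male mice, 13 weeks old, and 10 genes of this process were chosen by symbol out of 55487 genes in the tables. The 10 genes are the β-thymosins Tmsb4x and Tmsb10, the cytoplasmic actins Actb and Actg1, and the filament regulators Pfn1, Cfl1, Gsn, Capzb, Arpc2 and Wdr1. Each symbol was found as 1 row, and all 10 genes had enough counts to be tested. The labels give 4 mice as Dnmt3a+/-, with 1 intact copy of Dnmt3a, which encodes an enzyme that sets new DNA methylation, and 4 littermates as WT. The sources used here do not say how the mutant allele was made or on which strain. Per the labels, platelets came from blood drawn out of the heart, were spun down from platelet-rich plasma and were cleared of red cells and leukocytes with beads against Ter119 and CD45. Polyadenylated RNA went into stranded libraries, and each mouse gave 1 library.

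A platelet changes shape by building and dismantling actin filaments within moments of activation, and it does so with no nucleus, so its actin transcripts are inherited from the megakaryocyte. Filaments grow and shrink by the exchange of actin monomers at their ends. β-Thymosins hold monomers in reserve and profilin delivers them to growing ends. The Arp2/3 complex starts branches and capping protein blocks fast-growing ends, while cofilin, with Wdr1 as its helper, and gelsolin sever filaments and return monomers.

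Total counts ran from 15620972 to 22160394 in the libraries labelled Dnmt3a+/- and from 15185218 to 17398666 in the WT libraries. Dnmt3a itself stood at 9.96, 11.5, 24.2 and 19.5 CPM (counts divided by the TMM-scaled library size, as edgeR gives them) in the libraries labelled Dnmt3a+/- replicates 1 to 4, against 21.1, 22.1, 19.8 and 18.2 CPM in WT replicates 1 to 4. Of the libraries labelled Dnmt3a+/-, replicate 3 lay above all 4 WT libraries in CPM and replicate 4 inside the WT range. In TPM (a transcript's share of the library, corrected for gene length) both lay above WT, at 10.1 and 10.9 against 5.6 to 8.91. Neither showed the lower level that replicates 1 and 2 of their label had. The mutant allele is not described, so these levels cannot check the labels, and every direction below is between labels. The 12 platelet markers summed to 54950 to 57070 TPM in the libraries labelled Dnmt3a+/- and 47020 to 56820 TPM in WT. WT replicate 1 held 46880 TPM of 8 red cell markers, against 7075 to 10960 TPM in the libraries labelled Dnmt3a+/- and 4832 to 6925 TPM in the other WT libraries. WT replicate 3 held 27.7% of its TPM in mitochondrially encoded genes, against 19.3% to 20.7% in the libraries labelled Dnmt3a+/- and 17.9% to 19.8% in the other WT libraries. None of the markers of neutrophils, B cells, or monocytes and macrophages summed to more than 9.21 TPM per list in any library. The 10 hepatocyte markers summed to 0.58 to 85.2 TPM in the libraries labelled Dnmt3a+/- and 11.7 to 896 TPM in WT, and the 8 markers of T and NK cells to 12.0 to 17.3 and 8.76 to 19.0 TPM, with Cd3e and Cd3g at 0.

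The paralogous pairs are shown first by their coding sequences, because their likeness bears on how well reads can be assigned to each. The coding part is 135 of 768 bases in the Tmsb4x transcript and 135 of 623 in that of Tmsb10. For Actb and Actg1 it is 1128 of 1920 and 1128 of 1952 bases. The rest of these transcripts was not compared. The β-thymosin genes lie on chromosomes X and 6 and encode proteins of 44 residues each. Their coding sequences differ at 40 of 135 bases, shown here in full with the differing bases in capitals, 5′ to 3′ (GENCODE M21 transcripts, GRCm38; Tmsb4x chrX:167207093-167209315 and Tmsb10 chr6:72957347-72958748, both on the minus strand).
Tmsb4x: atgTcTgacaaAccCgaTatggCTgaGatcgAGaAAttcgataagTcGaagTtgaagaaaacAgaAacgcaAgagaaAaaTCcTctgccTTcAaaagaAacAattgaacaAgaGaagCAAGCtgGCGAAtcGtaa
Tmsb10: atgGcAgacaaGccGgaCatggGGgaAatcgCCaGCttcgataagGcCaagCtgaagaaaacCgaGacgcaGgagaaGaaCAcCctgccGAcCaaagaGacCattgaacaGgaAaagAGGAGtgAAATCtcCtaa
The longest identical stretch of this pair is 10 bases, and 11 of its 44 codons encode a different residue.

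The cytoplasmic actins are far closer to each other. Actb (chr5:142903115-142906754, minus strand) and Actg1 (chr11:120345690-120348542, minus strand) encode 375 residues each, and their coding sequences are 88.7% identical over 1128 bases. Their first 60 coding bases hold 9 of the 128 differences, again in capitals.
Actb: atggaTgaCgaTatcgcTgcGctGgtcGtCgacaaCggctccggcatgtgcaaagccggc
Actg1: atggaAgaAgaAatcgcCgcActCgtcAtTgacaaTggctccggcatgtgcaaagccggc
Only 4 of the 375 codons encode a different residue, while 125 codons differ in their bases. The longest identical stretch is 62 bases. The sources used here do not give the read length.

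Processed pseudogenes, copies of a spliced transcript set back into the genome, can also share reads with their parent. Each annotated pseudogene aligned to at least 80% of a member's coding sequence was assigned only to the member it matched best. By this rule 16 went to Actg1, 13 to Cfl1, 9 each to Actb and Tmsb10, 2 to Pfn1 and 1 to Tmsb4x. None went to Gsn, Capzb, Arpc2 or Wdr1. The Actg1 copies together held 98 to 241 counts per library, at most 0.25% of the counts of Actg1 and its copies. Most of those counts fell on Gm12715, which is 99.6% identical to the Actg1 coding sequence. The Cfl1 copies held 13 to 37 counts per library, and those of Actb, Tmsb10, Pfn1 and Tmsb4x at most 2. How the authors' counting divided shared reads sets these numbers, so they describe the table and are no measure of transcription from the copies. Cfl1 also overlaps Snx32 on the opposite strand, a gene with 44 to 102 counts per library.

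Promoter windows from RefSeq (GRCm38.p6, 250 bases before to 50 after a start) were on hand for 9 of the 10 genes, all except Actb. The CArG box, the site bound by the serum response factor SRF, was searched for because SRF is the known regulator of actin genes. Its pattern is the same on both strands, and 1.63% of all 32851 windows hold it. Among the 13 windows of the 9 genes, only that of Actg1 held it, starting 90 bases before the start. The stretch around it, bases 150 to 51 before the start (chr11:120348546-120348645, minus strand), is given 5′ to 3′ with the CArG box in capitals.
Actg1: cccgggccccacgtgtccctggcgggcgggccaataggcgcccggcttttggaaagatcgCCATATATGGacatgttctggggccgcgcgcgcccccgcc
The windows held 2 to 50 CpG dinucleotides, the sequence that DNA methyltransferases act on, and the Actg1 window held the most. The median of all windows was 7. DNA methylation was not measured in these libraries.

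The 10 genes differed widely in level. Tmsb4x, thymosin β4, the main monomer-holding protein of platelets, was the fourth most abundant transcript of all genes by TPM in each of the 8 libraries. It stood at 41808, 43080, 46589 and 42296 TPM in the libraries labelled Dnmt3a+/- and at 40950, 49343, 49101 and 50523 TPM in WT. The WT libraries held both the lowest and the highest of these values. Tmsb4x alone made up 4.35% ± 0.22 of all TPM in the libraries labelled Dnmt3a+/- and 4.75% ± 0.44 in WT (SD, n = 4 each), and the 10 genes together 5.31% ± 0.26 and 5.76% ± 0.40. The other 9 genes thus added 0.964% ± 0.065 and 1.01% ± 0.14.

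By TPM, which allows levels of different genes to be set side by side, the order after Tmsb4x was Actg1, Cfl1, Arpc2, Gsn, Pfn1, Actb, Capzb, Tmsb10 and Wdr1. Actg1, γ-actin, averaged 4285 ± 469 TPM in the libraries labelled Dnmt3a+/- and 4590 ± 705 TPM in WT (SD, n = 4 each). Cfl1, cofilin, which severs filaments, averaged 1836 ± 243 and 1972 ± 323 TPM. These 3 genes kept their places in all 8 libraries, where Tmsb4x exceeded Actg1 by 8.65 to 13.7 times, Actg1 exceeded Cfl1 by 1.84 to 2.83 times and Cfl1 exceeded Arpc2 by 1.92 to 3.38 times.

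The middle of the order was close. Arpc2, a core subunit of the Arp2/3 complex, averaged 803 ± 66.9 TPM in the libraries labelled Dnmt3a+/- and 767 ± 92.6 TPM in WT. Gsn, gelsolin, which severs and caps filaments, averaged 650 ± 77.9 and 666 ± 132 TPM, and Pfn1, profilin, which feeds monomers to growing ends, 624 ± 59.98 and 614 ± 91.6 TPM. Actb, β-actin, averaged 595 ± 66.8 and 621 ± 113 TPM (SD, n = 4 each throughout). Arpc2 lay above Gsn in 7 of 8 libraries, Gsn above Pfn1 in 7 and Pfn1 above Actb in 5, so Pfn1 and Actb changed places between libraries. Capzb, the β subunit of capping protein, lay below Actb in all 8 libraries and averaged 514 ± 54.7 TPM in the libraries labelled Dnmt3a+/- and 514 ± 93.1 TPM in WT.

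At the low end, Tmsb10, thymosin β10, averaged 278 ± 46.9 TPM in the libraries labelled Dnmt3a+/- and 285 ± 46.3 TPM in WT. Wdr1, which helps cofilin take filaments apart, averaged 54.5 ± 6.25 and 50.8 ± 7.55 TPM. Wdr1 ranked between 826 and 982 among all genes by TPM, against 293 to 369 for Tmsb10 and 27 to 39 for Actg1. Even the smallest count of any of the 10 genes, 1396 for Tmsb10 in the library labelled Dnmt3a+/- replicate 2, has an exact 95% Poisson interval of 1324 to 1471, which covers counting error only.

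**Figure D1:**
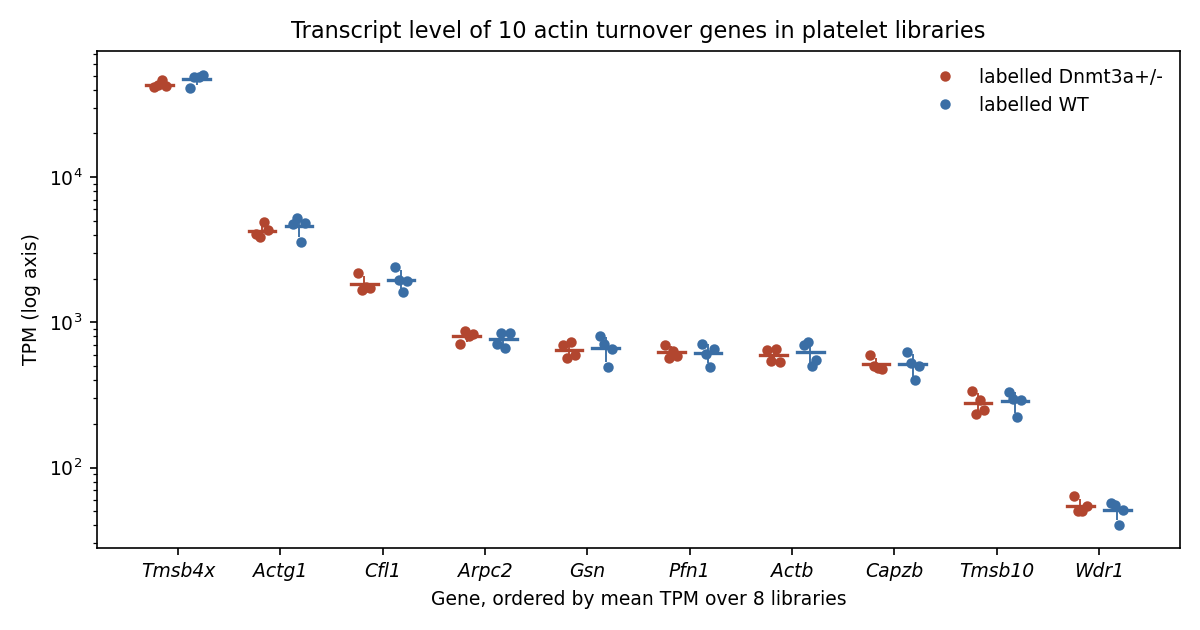
TPM of each gene (log axis) in the 4 libraries labelled Dnmt3a+/- (red, left) and the 4 labelled WT (blue, right), with a bar at the mean and a line for ± 1 SD. Tmsb4x lies near 45460 TPM, the next gene Actg1 near 4438 TPM and Wdr1 near 52.7 TPM, and the labels overlap for every gene.

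Between labels, none of the 10 genes passed the test. The edgeR quasi-likelihood test, adjusted over 7362 genes, gave 0 of the 10 an adjusted p under 0.05, and each had an adjusted p of 0.998. The background was equally empty, with 0% of all genes called, while 362 genes (4.92%) had an unadjusted p under 0.05, 1.73% of all genes higher and 3.19% lower in the libraries labelled Dnmt3a+/-. None of the 10 was among those 362. DESeq2 called 9 genes and limma on log2 TPM called 0, again with none of the 10 among them. The 8 values overlapped between labels for all 10 genes, where 2.54% of all genes had values that did not overlap, 1.37% of all genes being higher and 1.17% lower in the libraries labelled Dnmt3a+/-. Of the 10 log2 fold changes 8 were negative, with a median of -0.07, against 51% negative and a median of -0.005 over all genes tested.

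Tmsb4x is taken first, as the main monomer-holding gene. It stood at 23884, 23095, 25852 and 22130 CPM in the libraries labelled Dnmt3a+/- replicates 1 to 4, against 23207, 25107, 32248 and 27288 CPM in WT replicates 1 to 4. Of the 4 WT libraries replicate 3, the library with the large mitochondrial share, was the highest, and WT replicates 1 and 2 lay inside the range of the other label. The log2 fold change of Tmsb4x was -0.18 (SE 0.13), with a 95% interval from -0.46 to 0.09, and without WT replicate 3 it was -0.08, smaller in size than that of Actg1 (-0.17) and Cfl1 (-0.16) without the same library. In TPM that library was not the highest for Tmsb4x, so its place depended on the scale. A lower level in such bulk RNA cannot tell less transcript per platelet from fewer platelets that carry it. Tmsb10 stood at 132, 86.4, 112 and 89.4 CPM in the libraries labelled Dnmt3a+/- and at 130, 105, 99.7 and 108 CPM in WT, with a log2 fold change of -0.07 (SE 0.15). Replicate 1 was the highest of its label for Tmsb10 in both groups. Pfn1 stood at 509, 393, 447 and 402 CPM against 516, 396, 410 and 453 CPM in WT, which differed by a log2 fold change of -0.02 (SE 0.12).

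For the actins themselves the values of both labels were interleaved. Actg1 stood at 6346, 5734, 7462 and 6205 CPM in the libraries labelled Dnmt3a+/- and at 7412, 7183, 6232 and 7166 CPM in WT (log2 fold change -0.12, SE 0.11). The highest and the lowest Actg1 value both came from libraries labelled Dnmt3a+/-. Actb stood at 1054, 842, 1043 and 810 CPM in the libraries labelled Dnmt3a+/- and at 1151, 1068, 918 and 865 CPM in WT (log2 fold change -0.09, SE 0.13).

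Genes that dismantle or cap filaments gave differences inside the spread as well. Cfl1 stood at 1904, 1392, 1453 and 1402 CPM in the libraries labelled Dnmt3a+/- and at 2044, 1485, 1568 and 1637 CPM in WT (log2 fold change -0.13, SE 0.14). Replicate 1 stood above the other 3 libraries of its label in both groups. Gsn stood at 1354, 1014, 1416 and 993 CPM against 1568, 1223, 1069 and 1149 CPM in WT (-0.07, SE 0.16 on the log2 scale). Capzb stood at 572, 476, 479 and 438 CPM against 624, 457, 463 and 483 CPM in WT (-0.05, SE 0.12). Wdr1 stood at 145, 113, 113 and 115 CPM against 129, 117, 104 and 114 CPM in WT (0.07, SE 0.11). For Wdr1 the library labelled Dnmt3a+/- replicate 1 was the highest of the 8 and WT replicate 3 the lowest.

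Arpc2, which stands here for filament branching, was the steadiest of the 10 genes in CPM. In TPM its highest value was 1.3 times its lowest, against 1.23 times for Tmsb4x, so this place depended on the scale. Arpc2 stood at 856, 992, 934 and 921 CPM in the libraries labelled Dnmt3a+/- and at 851, 911, 901 and 963 CPM in WT (log2 fold change 0.03, SE 0.09). Its lowest value in each group came from replicate 1, the library in which Cfl1 and Tmsb10 were highest. Over the 10 genes the 95% intervals of the fold change reached down to 0.726 at the lowest (Tmsb4x) and up to 1.24 at the highest (Wdr1), so larger differences lay outside the intervals at this spread.

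**Figure D2:**
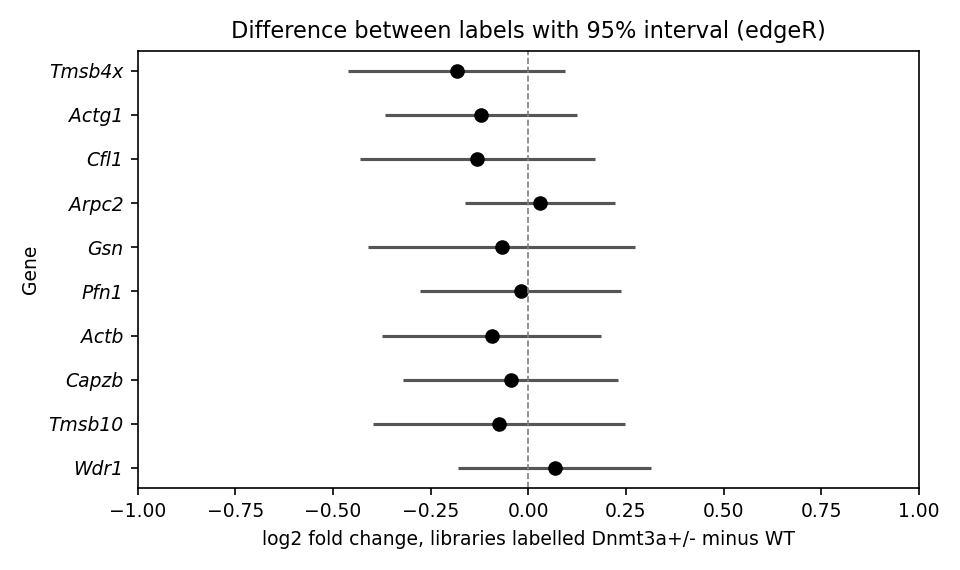
Log2 fold change of each gene, libraries labelled Dnmt3a+/- minus WT, with the 95% interval from the edgeR fit over 4 libraries of each label. Every interval includes 0, from Tmsb4x at -0.18 to Wdr1 at 0.07.

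By the deposited values, γ-actin rather than β-actin was the main actin transcript in these platelets. The part of reads that match both genes in this ratio was not tested. The TPM ratio of Actg1 to Actb was 6.25, 7.16, 7.47 and 8.04 in the libraries labelled Dnmt3a+/- and 6.74, 7.18, 7.19 and 8.70 in WT. Actg1 therefore made up 86.2% to 88.9% of cytoplasmic actin TPM in the libraries labelled Dnmt3a+/- and 87.1% to 89.7% in WT. Adding the counts of the annotated copies to their parents left the ratio at 6.27 to 8.72 over the 8 libraries, and raw counts gave 6.02 to 8.28. The ratio did not separate the labels (difference of mean log2 Actb over Actg1 0.04, exact two-sided permutation p = 0.714, adjusted over 3 ratios 0.886). With 4 libraries against 4 the smallest p this test can give is 0.0286.

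The transcripts of monomer-holding thymosin outnumbered those of actin in every library. β-Thymosin TPM exceeded cytoplasmic actin TPM 9.0, 9.83, 8.38 and 8.79 times in the libraries labelled Dnmt3a+/- and 7.6, 8.31, 12.1 and 9.50 times in WT. The WT libraries were the more spread out, with replicate 1 lowest and replicate 3 highest of all 8. The difference of the mean log2 ratio was -0.04 (exact two-sided permutation p = 0.886, adjusted 0.886), and without WT replicate 3 it was 0.09. Within the thymosins, Tmsb4x exceeded Tmsb10 124, 185, 160 and 170 times in the libraries labelled Dnmt3a+/- and 123, 167, 221 and 174 times in WT (difference of mean log2 ratio -0.09, exact permutation p = 0.743, adjusted 0.886). In both groups replicate 1 was the lowest.
For the genes that act on monomers and filaments, Cfl1 stood at 0.380 ± 0.066 transcripts per cytoplasmic actin transcript in the libraries labelled Dnmt3a+/- and 0.381 ± 0.050 in WT, and Pfn1 at 0.129 ± 0.016 and 0.118 ± 0.012 (SD, n = 4 each).

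**Figure D3:**
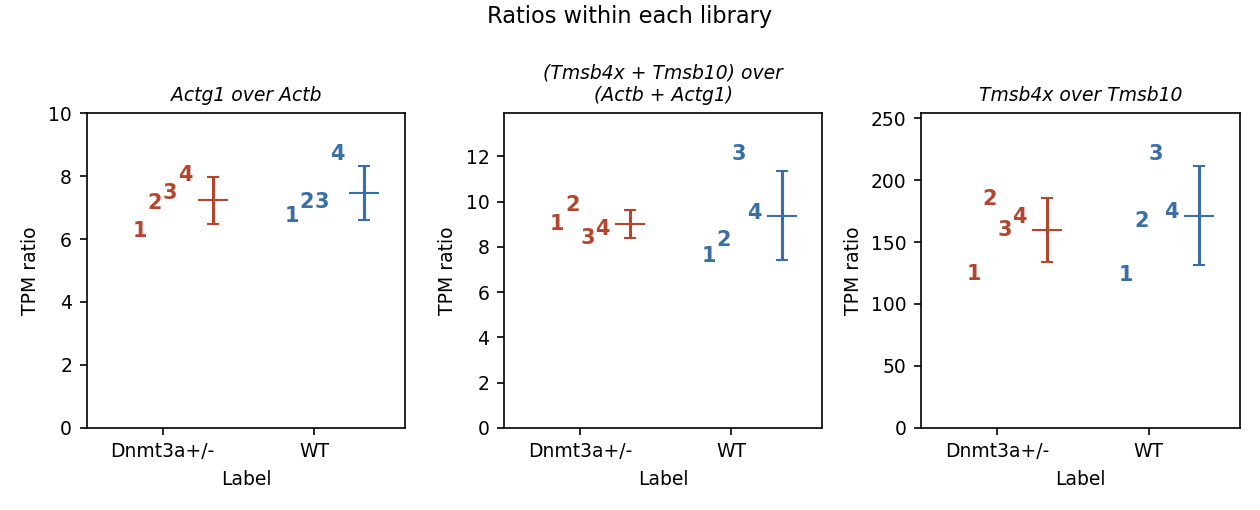
TPM ratios within each library, with the replicate number as the symbol, and the mean ± 1 SD beside each group of 4 libraries. Actg1 over Actb runs from 6.25 to 8.70, β-thymosin over actin from 7.6 to 12.1 and Tmsb4x over Tmsb10 from 123 to 221, with overlap between labels in each panel.

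Libraries of the same label differed from each other, and 7 of the genes, all except Tmsb4x, Actg1 and Arpc2, were above their own mean in replicate 1 of both labels. WT replicate 1 had the highest CPM of the 8 libraries for Actb, Pfn1, Cfl1, Gsn and Capzb, and the library labelled Dnmt3a+/- replicate 1 the highest for Tmsb10 and Wdr1. The libraries labelled Dnmt3a+/- replicates 2 and 4 held the lowest values for 4 genes each, Tmsb10, Actg1, Pfn1 and Cfl1 in replicate 2 and Tmsb4x, Actb, Gsn and Capzb in replicate 4. WT replicate 1 is also the library with 46880 TPM of red cell markers, and the library labelled Dnmt3a+/- replicate 1 had the next highest sum, 10960 TPM. The part of red cell RNA in these levels was not tested. Without WT replicate 1 the 10 genes again gave 0 calls, while 135 genes were called over the whole table. In TPM, all of the 10 genes except Tmsb4x were lowest in WT replicate 3, the library with the mitochondrial share of 27.7%, and the part of that share in their TPM was not tested.

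The SD of the log2 ratio between 2 genes over the 8 libraries is small where both moved together, and also where both varied little. The steadiest pair was Pfn1 and Capzb, whose log2 CPM ratio had an SD of 0.073, although Pfn1 and Capzb alone had SDs of 0.159 and 0.175. Cfl1 and Capzb (SD 0.076), Pfn1 and Cfl1 (0.089), Actb and Gsn (0.099), and Tmsb10 and Pfn1 (0.099) followed out of 45 pairs. The ratio of Actb to Actg1 was looser, with an SD of 0.144, where Actb and Actg1 alone had SDs of 0.188 and 0.144. The least steady pair was Tmsb4x and Gsn (SD 0.313), whose ratio varied 2.04-fold. These values describe 8 libraries that share 1 scaling step and carry no test.

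Arpc2 and Tmsb4x were below their own mean in replicate 1 of both labels. Arpc2 had an SD of 0.076 in log2 CPM over the 8 libraries, and only 6.12% of the 784 genes with a mean of at least 100 CPM varied less. The median SD of those genes was 0.149. Gsn varied most of the 10, with an SD of 0.239, above that of 79.1% of those genes, followed by Tmsb10 (0.223) and Cfl1 (0.206).

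**Figure D4:**
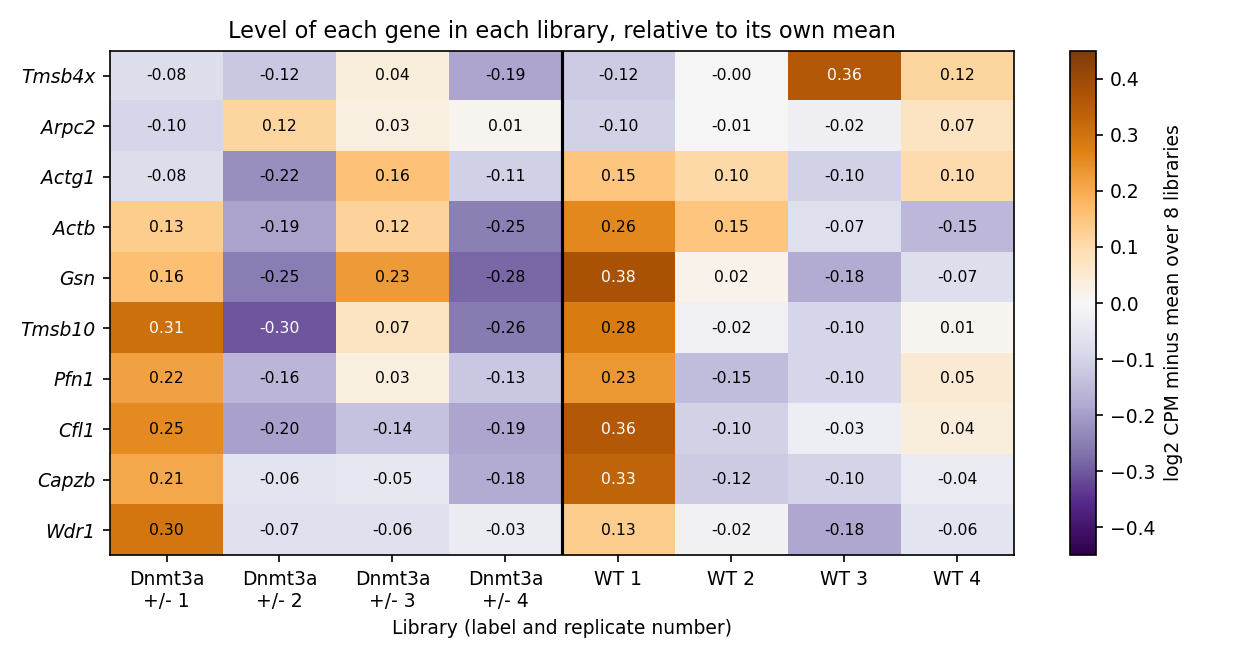
Log2 CPM of each gene in each library minus the gene's mean over the 8 libraries, with libraries labelled Dnmt3a+/- to the left of the line and WT to the right. WT replicate 1 stands at 0.36 for Cfl1 and 0.38 for Gsn but at -0.10 for Arpc2, and Tmsb4x stands at 0.36 in WT replicate 3.

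The genes whose profile over the 8 libraries lay nearest to that of Actb were Cyb5r3, a cytochrome b5 reductase, Ube2v1, a ubiquitin-conjugating enzyme variant, and Gmpr, a guanosine monophosphate reductase. Their root mean square distances from the centred log2 CPM profile of Actb were 0.052, 0.055 and 0.060, the smallest of 1178 genes with a mean of at least 50 CPM. Nearest to Tmsb4x were Gm10419, Rtl8a and 1500026H17Rik, at larger distances of 0.097, 0.099 and 0.108.

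The wider actin pathway gave no call. Lists by role held 145 genes, of which 143 were in the tables and 101 had enough counts to be tested. Of these 101, 52 had positive and 49 negative log2 fold changes, with a median of 0.0012 against -0.005 for all genes, and 0 passed the adjusted threshold. Only Wipf2, a partner of the nucleation promoting factor N-WASP, had an unadjusted p under 0.05, 0.99% of the lists against 4.92% of all genes. Wipf2 was rare, with 20, 17, 14 and 30 counts in the libraries labelled Dnmt3a+/- and 10, 11, 3 and 9 counts in WT. It met the filter on low counts through the libraries labelled Dnmt3a+/-, the group where it is higher, so a difference in that direction was built into its being tested. Its log2 fold change of 1.16 (SE 0.38) did not pass (edgeR adjusted p = 0.706).

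Other actins had few counts. Actbl2 had 0 counts in all 8 libraries, and the skeletal muscle actin Acta1 had at most 1. The heart muscle actin Actc1 had 2 to 26 counts in the libraries labelled Dnmt3a+/- and 0 to 4 in WT. The 8 striated muscle markers, Acta1 among them, summed to 1.83 to 10.1 TPM in the libraries labelled Dnmt3a+/- and 1.33 to 2.96 TPM in WT, and their part in the Actc1 counts was not tested. The smooth muscle actins Acta2 and Actg2 averaged 0.713 ± 0.243 and 0.875 ± 0.459 TPM in the libraries labelled Dnmt3a+/-, and 1.47 ± 1.25 and 1.31 ± 0.72 TPM in WT. For Acta2, WT replicate 1 stood at 3.3 TPM, against 0.66 to 1.25 TPM in the other WT libraries and 0.37 to 0.93 TPM in the libraries labelled Dnmt3a+/-. The 8 markers of smooth muscle and fibroblasts summed to 7.15 to 19.7 TPM in the libraries labelled Dnmt3a+/- and 11.2 to 21.8 TPM in WT, and their part in these actins was not tested.

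Among the profilins and β-thymosins, Pfn1 and Tmsb4x held nearly all of the transcript. Pfn1 stood alone among profilins, with Pfn2 at 0 to 8 counts, Pfn4 at 0 to 5 and Pfn3 at 0 in the 8 libraries. The other β-thymosins Tmsb15a, Tmsb15b1, Tmsb15b2 and Tmsb15l had at most 3 counts each in any library. Cap1, which frees monomers from cofilin, averaged 319 ± 6.63 TPM in the libraries labelled Dnmt3a+/- and 301 ± 37.4 TPM in WT, and its paralog Cap2 18.9 ± 2.10 and 18.6 ± 3.22 TPM. Twf1, a twinfilin that binds monomers, averaged 124 ± 19.6 and 100 ± 8.68 TPM. Beside Cfl1, the related depolymerising factor Dstn averaged 306 ± 95.1 and 255 ± 48.1 TPM and muscle-type Cfl2 28.2 ± 0.92 and 29.7 ± 1.99 TPM.

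The subunits of capping protein and of the Arp2/3 complex were unequal in level. Capzb, at 514 TPM, exceeded its partner subunits Capza1 and Capza2, which averaged 125 ± 11.9 and 111 ± 10.3 TPM in the libraries labelled Dnmt3a+/- and 117 ± 9.68 and 98.0 ± 12.3 TPM in WT. Tmod3, a pointed-end capper, averaged 191 ± 28.9 TPM in the libraries labelled Dnmt3a+/- and 158 ± 22.4 TPM in WT, with a log2 fold change of 0.20 in CPM that did not pass (edgeR adjusted p = 0.998). Within the Arp2/3 complex Arpc2 was the most abundant transcript. Arpc3 averaged 652 ± 67.0 and 615 ± 87.8 TPM, Arpc1a 519 ± 29.3 and 474 ± 55.9 TPM, and Arpc1b, the blood cell paralog of Arpc1a, 168 ± 45.5 and 176 ± 65.0 TPM. Actr3 and Actr2, the actin-related proteins that seed the branch, averaged 131 ± 24.4 and 41.8 ± 10.4 TPM in the libraries labelled Dnmt3a+/-, and 110 ± 16 and 38.1 ± 10.2 TPM in WT. Arpc4 lay at 31.5 ± 3.90 and 31.1 ± 5.38 TPM. Of the 9 tested genes of the complex 6 had positive and 3 negative log2 fold changes, from -0.20 to 0.23.

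Upstream regulators gave no call either. Of 20 tested nucleation promoting factors 13 were positive (median 0.05), with Nckap1, a subunit of the WAVE complex, the most abundant by CPM at 116 ± 15.9 TPM in the libraries labelled Dnmt3a+/- and 96.2 ± 18.3 TPM in WT. Was, the Wiskott-Aldrich syndrome protein gene, averaged 22.6 ± 3.34 and 24.9 ± 4.76 TPM. Among 10 formins and elongation factors (median 0.04), Inf2 averaged 86.9 ± 12.3 and 84.2 ± 17.5 TPM, Vasp 50.4 ± 6.01 and 54.3 ± 10.7 TPM and Diaph1 31.1 ± 1.22 and 29.3 ± 4.92 TPM. Of 7 cofilin kinases, phosphatases and their activators 5 were negative (median -0.04). Rock2, a kinase that activates LIM kinases and the most abundant of these genes by CPM, averaged 27.2 ± 6.4 TPM in the libraries labelled Dnmt3a+/- and 21.7 ± 3.57 TPM in WT, with a log2 fold change of 0.29 (SE 0.15) that did not pass (edgeR adjusted p = 0.998). Limk1, which inactivates cofilin, averaged 4.38 ± 0.76 and 5.31 ± 1.04 TPM, and Ssh1, which reactivates it, 6.55 ± 1.92 and 6.79 ± 0.82 TPM. Srf averaged 2.35 ± 0.66 and 2.49 ± 1.00 TPM, with a log2 fold change of -0.28 (SE 0.23).

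Filament-binding genes were among the abundant transcripts of the pathway. Tpm4, a tropomyosin that coats filaments, averaged 2710 ± 203 TPM in the libraries labelled Dnmt3a+/- and 2690 ± 237 TPM in WT, above Cfl1. Flna, the crosslinker filamin A, averaged 905 ± 141 and 955 ± 181 TPM. Of the 12 filament-binding genes 6 had positive and 6 negative log2 fold changes.

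**Figure D5:**
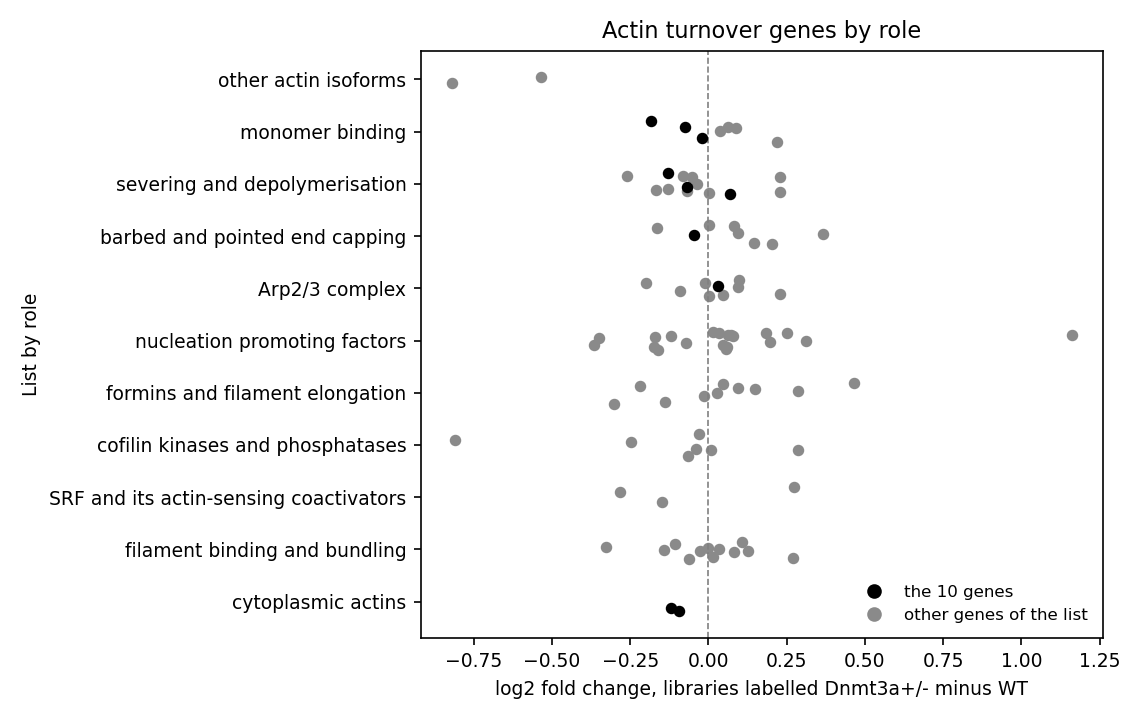
Log2 fold change, libraries labelled Dnmt3a+/- minus WT, of 93 of the 101 tested genes by role, with the 10 genes in black and the others in grey. The points lie around 0, with Wipf2 at 1.16 to the far right and Acta2 at -0.82 to the far left, and 0 of the 93 passed the adjusted threshold.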

How the data were processed

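The authors deposited a table of estimated counts, written as whole numbers, and a table of TPM for the same 8 libraries. The tools named in the submitters' processing notes are RSEM, STAR, cutadapt and DESeq2, and the build is mm10, without roles or versions, and the annotation and strand setting are not given in the sources used here. Estimated counts were rounded (no value changed) and fitted with edgeR 4.0.16 under R 4.3.3 (TMM, filterByExpr with minimum count 10 and minimum total 15, glmQLFit, glmQLFTest, Benjamini-Hochberg over 7362 genes, threshold 0.05). Log2 fold changes are Dnmt3a+/- minus WT. TPM ratios were tested by exact permutation over 70 arrangements, adjusted over 3 ratios. Pseudogenes were aligned with BLAST 2.17.0 to GENCODE M21 coding sequences. DESeq2 1.42.0 and limma 3.58.1 were alternatives. No library repeated another within sampling noise (chi-square over its degrees of freedom was at least 12.6 for pairs of one label), and each counted as 1 replicate. The labels call them biological replicates.

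The 10 genes and the lists were chosen with earlier results of these data known. Named are the 10 genes, list genes with an unadjusted p under 0.05 or the highest CPM of their list, and the 3 genes nearest to Tmsb4x and to Actb. Other list genes were named after their levels were seen, as levels only.
1 list of the wider pathway enters the counts over all lists and is not reported on its own here.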

Additional observations from a re-analysis of the deposited data

Results flagged for a closer look

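Within the 4 libraries of a label, the gap of 1 library to the nearest of the others was tested against the whole range for the 10 genes and 3 ratios, in 26 groups, of which chance flags about 1 in 20. It was too large in 3 groups. Cfl1 stood at 1904 CPM in the library labelled Dnmt3a+/- replicate 1, against 1392 to 1453 CPM in the other libraries of that label. Wdr1 stood at 145 CPM in the same library, against 113 to 115 CPM. Capzb stood at 624 CPM in WT replicate 1, against 457 to 483 CPM in the other WT libraries.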

How the results depend on the processing

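In all 17 alternatives 0 of the 10 genes passed, and the lowest adjusted p of any of them was 0.707 (Cfl1). Tmsb4x, Actb, Actg1 and Cfl1 stayed negative in all 17, Tmsb4x from -0.25 to -0.08. Leaving out 1 library, Cfl1 ran from -0.24 (without the library labelled Dnmt3a+/- replicate 1) to -0.025 (without WT replicate 1), Actb from -0.153 (without WT replicate 4) to -0.021 (without WT replicate 1) and Actg1 from -0.191 (without the library labelled Dnmt3a+/- replicate 3) to -0.078 (without replicate 2 of that label). Signs turned for values near 0, and the cause was not tested. For the other genes the log2 fold change with 1 library left out ran from -0.196 to 0.0097 for Tmsb10, from -0.0909 to 0.060 for Pfn1, from -0.152 to 0.057 for Gsn, from -0.117 to 0.069 for Capzb, from -0.014 to 0.0732 for Arpc2 and from -0.020 to 0.123 for Wdr1. Without the libraries labelled Dnmt3a+/- replicates 3 and 4, Pfn1 was at 0.036 and Capzb at 0.060. That setting put Actg1 at -0.20, Cfl1 at -0.019 and Wdr1 at 0.164, beyond their ranges with 1 library left out. On log2 TPM plus 1, Pfn1 was at 0.031 and Capzb at 0.012, and with 0.1 added Pfn1 was at 0.0313 and Capzb at 0.0122. With upper-quartile factors Pfn1 was at 0.00025. The count over all genes was 250 without a filter on low counts, 9 with DESeq2, 1 without replicates 3 and 4 of the libraries labelled Dnmt3a+/-, and 0 to 135 when 1 library was left out, with 135 without WT replicate 1 and 1 without the library labelled Dnmt3a+/- replicate 2. The list median stayed between -0.028 and 0.049. The pooled SD of the list medians of single libraries within a label was 0.075. It measures single libraries and is no standard error of a difference between labels. Leaving out 1 library, the log2 difference ran from -0.034 to 0.096 for Actb over Actg1, from -0.13 to 0.092 for thymosin over actin and from -0.24 to 0.045 for Tmsb4x over Tmsb10. Without replicates 3 and 4 of the libraries labelled Dnmt3a+/-, thymosin over actin was 0.029 and Actb over Actg1 0.149. Tmsb4x over Tmsb10 was -0.15 there, and the 6 libraries allow no p under 0.0667. With the replicate number as a block 0 genes passed. Same-numbered libraries deviated from their group means with correlations of 0.077, 0.11, 0.11 and -0.098, against -0.19 to 0.18 for differently numbered libraries. These values cannot tell whether same-numbered libraries were prepared together, which was not tested. Sign flips over the 4 pairs gave adjusted p = 0.875 for each ratio in an exact test that cannot go below 0.125.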
